A study of Mus musculus with 13 samples.

Results

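The genes described here are 50 genes of Wnt signalling, namely 19 Wnt ligands, 14 receptors and co-receptors (Fzd, Ror and Lrp genes), 10 secreted antagonists (Sfrp, Frzb, Dkk and Wif1), 4 R-spondin agonists, and 3 genes that lie at the nuclear end of the pathway (Axin2, Lef1 and Tcf7). They were chosen by name, and all 50 were found among the 22367 protein-coding genes of the GENCODE vM1 annotation on mm9. The study mapped AEBP2, an accessory subunit of Polycomb repressive complex 2 (PRC2), by ChIP-seq in mouse embryonic stem cells (mESCs), together with H3K27me3, the histone mark that PRC2 deposits. ChIP-seq recovers the DNA that an antibody pulls down, and stretches with more reads than background are called as peaks. The 5 peak lists used here came from wild-type cells of a male 129/1 mESC line, grown without feeder cells in serum with LIF-conditioned medium. Endogenous AEBP2 and H3K27me3 were each represented by 2 replicates. FS2-AEBP2, which is AEBP2 with a Flag-StrepII tag at its N terminus that was expressed from a plasmid, was represented by 1 sample, so its values have no replicate. The study's methods describe this plasmid and E14 cells for mass spectrometry of the tagged protein, and name no cell line in the ChIP section. The labels name the 129/1 line. ChIP of the tagged protein used beads blocked with BSA and yeast tRNA. The labels call the mark H3K27, and H3K27me3 is the name used by the study. Which H3K27me3 list is replicate 1 is uncertain, since the list names and the sample records appear to number them in opposite ways, and the records were followed. SUZ12, input and Aebp2 mutant samples were not analysed here.

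Wnt proteins are secreted, lipid-modified signals that bind Frizzled receptors together with the co-receptors Lrp5 and Lrp6. Binding stabilises β-catenin, which enters the nucleus and joins TCF/LEF factors at target genes, and some Wnt proteins act instead through Ror receptors or planar cell polarity proteins. Antagonists keep the ligand or the co-receptor from its partner. In mESCs, PRC2 is known to sit at CpG islands of developmental genes, where the genes are silent or weakly expressed but can be switched on during differentiation. Wnt ligands and their antagonists pattern the early embryo, and β-catenin activity also helps mESCs to self-renew.

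A promoter was defined as the 2001 bp from 1 kb upstream to 1 kb downstream of the annotated gene start (the start site), and was counted for a list when at least 1 bp lay under a peak. A CpG-island-like region was a stretch of joined 500 bp windows with a GC content from 55% upwards and a CpG ratio, observed over expected, from 0.65 upwards. Read counts are not part of the lists. The depth behind them is thus unknown, and a promoter without a peak may still be bound. Each peak also has a whole-number score of unstated scale, and scores were compared only between peaks of the same list. Counts of genes are given beside the same count over all protein-coding promoters, with no test, because genes are not replicates of the experiment. As is usual for mESCs, all 8 lineage genes tested, such as Sox17, Gata4 and Pax6, had an H3K27me3 peak in both replicates (15.0% of all promoters). Of 10 listed genes that are active in mESCs, 9 were matched. None of these 9 had such a peak, with Klf4 in a single replicate. AEBP2 lay in both replicates at 7 of the 8 and at 0 of the 9 (8.44% of all promoters). Beside these shares, absence at 9 genes carries little weight.

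The 300 bases directly upstream of the start site are printed for 4 promoters, with every CpG in capitals, because these upstream stretches differ in CpG number. The letters are those of the mm9 reference genome, not of the 129/1 cells, and are written 5′ to 3′ in the direction of the gene. Sfrp1 (chr8:24521674-24521973, plus strand) is an antagonist gene present in all lists. Fzd1 (chr5:4758217-4758516, minus strand) is a receptor gene in all lists, and the receptor with the most promoter bases under AEBP2 in replicate 1. Fzd5 (chr1:64784325-64784624, minus strand) has a CpG-island-like promoter but no peak. Dkk4 (chr8:23734215-23734514, plus strand) has neither.
Sfrp1: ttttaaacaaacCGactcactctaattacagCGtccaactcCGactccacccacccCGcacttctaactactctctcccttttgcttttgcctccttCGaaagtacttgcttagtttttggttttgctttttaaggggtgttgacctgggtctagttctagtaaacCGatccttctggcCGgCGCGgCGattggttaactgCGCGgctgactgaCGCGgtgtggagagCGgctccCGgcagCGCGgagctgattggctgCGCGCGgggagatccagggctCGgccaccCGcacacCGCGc
Fzd1: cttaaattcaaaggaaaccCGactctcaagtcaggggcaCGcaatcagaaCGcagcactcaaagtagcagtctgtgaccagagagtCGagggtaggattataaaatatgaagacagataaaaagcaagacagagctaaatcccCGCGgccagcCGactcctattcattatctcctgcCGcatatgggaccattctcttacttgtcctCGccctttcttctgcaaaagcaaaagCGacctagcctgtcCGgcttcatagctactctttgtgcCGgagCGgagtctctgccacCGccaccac
Fzd5: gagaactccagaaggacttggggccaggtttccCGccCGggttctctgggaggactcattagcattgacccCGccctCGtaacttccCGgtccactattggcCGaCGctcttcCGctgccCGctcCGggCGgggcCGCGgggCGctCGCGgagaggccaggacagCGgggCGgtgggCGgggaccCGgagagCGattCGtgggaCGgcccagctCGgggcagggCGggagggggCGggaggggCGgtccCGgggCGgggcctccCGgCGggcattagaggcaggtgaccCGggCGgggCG
Dkk4: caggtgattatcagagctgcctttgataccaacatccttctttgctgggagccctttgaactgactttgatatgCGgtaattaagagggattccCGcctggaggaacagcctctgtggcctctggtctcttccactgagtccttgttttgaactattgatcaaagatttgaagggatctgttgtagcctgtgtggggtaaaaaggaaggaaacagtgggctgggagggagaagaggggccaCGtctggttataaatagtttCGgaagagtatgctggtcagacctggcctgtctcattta
No annotated exon overlaps any of the 4 stretches. Sfrp1 has 25 CpGs in these 300 bases, Fzd1 14, Fzd5 34 and Dkk4 4, against a median of 9 over all promoters. In these 300 bases Fzd5, which had no peak in any list, thus had more CpGs than Sfrp1 and Fzd1, which had a peak in all 5. Over the whole window from 1 kb upstream to 1 kb downstream this was not so, with 140 CpGs at Fzd5, 150 at Sfrp1, 142 at Fzd1 and 29 at Dkk4.

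Most promoters of the 50 Wnt genes carried H3K27me3, and many carried AEBP2 in both replicates. H3K27me3 peaks were found at 41 promoters in replicate 1 (17.0% of all promoters) and 41 in replicate 2 (17.7% of all), and 40 of the 50 genes had one in both (80.0%, against 15.0% of all). AEBP2 peaks were found at 27 promoters in replicate 1 (9.08% of all) and 41 in replicate 2 (22.3% of all). All 27 of replicate 1 were among the 41 of replicate 2, so that 27 genes had AEBP2 in both (54.0%, against 8.44% of all). FS2-AEBP2 peaks lay at 30 promoters (60.0%, against 6.53% of all). H3K27me3 and AEBP2 occurred together, in both replicates of each, at 26 (52.0%, against 5.88% of all). A peak in all 5 lists was found at 24 genes (48.0%, against 4.57% of all), and no peak at 4, Fzd5, Lrp5, Sfrp4 and Dkk4 (8.0%, against 68.5% of all).

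**Figure D1:**
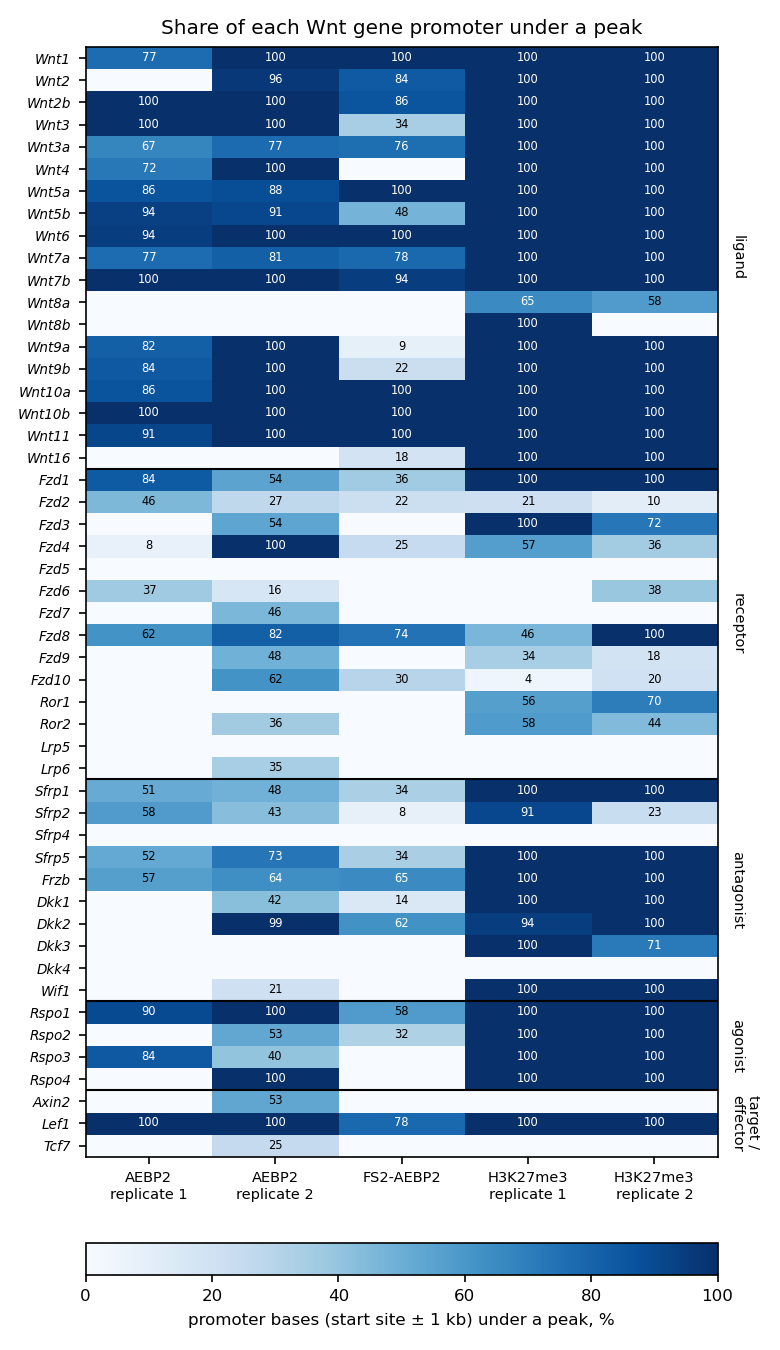
Percentage of each promoter (start site ± 1 kb) that lay under a peak, for the 50 Wnt genes (rows, by role) in the 5 peak lists (columns). The ligand block is darker and has fewer gaps than the receptor block, although Wnt2, Wnt4, Wnt8a, Wnt8b and Wnt16 have gaps. Several ligands are pale for FS2-AEBP2. Among the receptors, Fzd5 and Lrp5 are empty in all 5 lists.

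The replicates were close for the mark and less so for AEBP2. For H3K27me3, 40 genes were called in both replicates, 8 in neither, Wnt8b in replicate 1 only and Fzd6 in replicate 2 only. For AEBP2, 27 were called in both, 9 in neither, 0 in replicate 1 only and 14 in replicate 2 only. At the 14 genes called in replicate 2 only, the AEBP2 peaks had a median length of 1515 bp and a median score of 6, against 855 bp and 7 over the whole list. At the 27 called in both, the replicate 2 peaks had a median length of 3414 bp and a median score of 16. Among the 14 were 6 receptor genes (Fzd3, Fzd7, Fzd9, Fzd10, Ror2 and Lrp6) and only 1 ligand, Wnt2. FS2-AEBP2 peaks were present at 5 of the 14 genes, Wnt2, Fzd10, Dkk1, Dkk2 and Rspo2.

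These promoters are rich in CpG, and the comparison with all promoters is therefore also given for promoters of that kind. A CpG-island-like region overlapped 43 of the 50 promoters (86.0%, against 55.0% of all), the exceptions being Wnt8a, Wnt8b, Wnt10a, Wnt16, Dkk1, Dkk3 and Dkk4. Among all 12312 promoters with such a region, 14.9% had AEBP2 in both replicates, 11.4% had FS2-AEBP2 and 23.4% had H3K27me3 in both. Of the 43 Wnt genes with one, 26 had AEBP2 in both replicates, 27 had FS2-AEBP2 and 35 had H3K27me3 in both. Receptor promoters held a median of 143 CpGs in 2001 bp, ligand promoters 110 and antagonist promoters 82, against 61 over all promoters. Of these roles, receptors had the smallest share with H3K27me3 in both replicates. The counts were 9 of 14 receptors, 18 of 19 ligands and 8 of 10 antagonists. In AEBP2 replicate 2 the antagonists had the smallest share, with 7 of 10 against 11 of 14 receptors and 16 of 19 ligands. R-spondin promoters, with a median of 82.5 CpGs, had H3K27me3 in both replicates at all 4 genes. Whether CpG content is related to these shares was not tested.

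**Figure D2:**
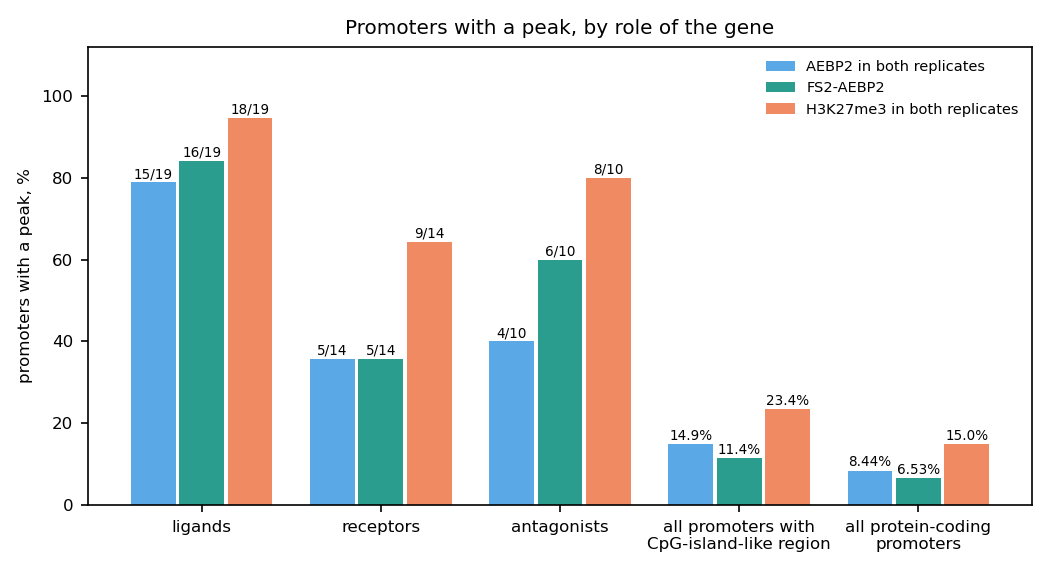
Percentage of promoters with an AEBP2 peak in both replicates, an FS2-AEBP2 peak, or an H3K27me3 peak in both replicates, for ligands, receptors and antagonists and for 2 backgrounds, with counts or percentages above the bars. H3K27me3 was the highest bar in each role, and the ligand bars (15, 16 and 18 of 19) stand above those of receptors (5, 5 and 9 of 14) and antagonists (4, 6 and 8 of 10).

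Among ligands, receptors and antagonists, the ligands were the most completely marked. H3K27me3 lay at all 19 ligand promoters in replicate 1 and at 18 in replicate 2, which lacked Wnt8b. AEBP2 lay at 15 in replicate 1, at 16 in replicate 2 and, as the tagged protein, at 16. In all, 14 of the 19 were in every list, namely Wnt1, Wnt2b, Wnt3, Wnt3a, Wnt5a, Wnt5b, Wnt6, Wnt7a, Wnt7b, Wnt9a, Wnt9b, Wnt10a, Wnt10b and Wnt11. The H3K27me3 peaks were also long. Their median length was 11482 bp in replicate 1 and 10032.5 bp in replicate 2, compared with 4864 bp and 3970.5 bp over all promoters with a peak. AEBP2 peaks at ligands had a median of 3299 bp and 4969 bp, compared with 1243.5 bp and 872 bp over all promoters with one. H3K27me3 covered the whole 2001 bp at 18 ligands in replicate 1 and 17 in replicate 2 (94.7% and 94.4% of those with a peak). Over all promoters with a peak the shares were 54.2% and 49.4%. AEBP2 did so at 4 and 11 ligands (26.7% and 68.8%, against 15.1% and 11.5% over all promoters with a peak).

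Wnt3, a ligand needed to form the primitive streak, had the longest H3K27me3 peak of the 50 genes in replicate 1. In replicate 2 the longest was that of Wnt1 (22461 bp). Wnt3 is a gene of chromosome 11 (103635464 to 103679271, plus strand). Its H3K27me3 peak ran from 103627328 to 103678750 in replicate 1 (51423 bp, score 26) and from 103629071 to 103639146 in replicate 2 (10076 bp, score 28). Replicate 2 had further peaks behind this one, so that 98.8% and 79.8% of the gene were covered in the 2 replicates. The difference in the length of the peak at the promoter was thus mainly one of how the marked stretch was divided. AEBP2 was far narrower, from 103633480 to 103637133 in replicate 1 (3654 bp, score 20) and from 103631458 to 103638201 in replicate 2 (6744 bp, score 12). The FS2-AEBP2 peak, from 103633966 to 103635152 (1187 bp, score 6), ended 312 bp before the start site.

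Wnt1, known for its role in the midbrain and hindbrain, was covered along its entire length by a peak of every list. It is found on chromosome 15 (98620288 to 98624268, plus strand). AEBP2 peaks ran from 98619751 to 98624562 in replicate 1 (4812 bp, score 16) and from 98619284 to 98629191 in replicate 2 (9908 bp, score 47), and the FS2-AEBP2 peak from 98619299 to 98629555 (10257 bp, score 73). The H3K27me3 peaks, from 98617938 to 98640464 (22527 bp, score 33) and from 98618087 to 98640547 (22461 bp, score 26), nearly coincided. The scores of these peaks were above those of 87.1% and 97.9% of the AEBP2 peaks, 98.1% of the FS2-AEBP2 peaks and 98.4% and 95.7% of the H3K27me3 peaks of their lists.

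Wnt10a, a ligand of skin and tooth development, was in all lists without a CpG-island-like region at its start site. It is found on chromosome 1 (74838090 to 74850753, plus strand). Its H3K27me3 peak in replicate 1, from 74832554 to 74855118 (22565 bp, score 58), had the highest score given in that list, and in replicate 2 it ran from 74832520 to 74854723 (22204 bp, score 40). AEBP2 peaks ran from 74837369 to 74842262 (4894 bp, score 15) and from 74835011 to 74845196 (10186 bp, score 47). A single FS2-AEBP2 peak from 74835156 to 74852993 (17838 bp, score 40) covered the whole gene and was the longest AEBP2 peak of any kind among the 50 genes. CpG-island-like regions lay further inside the gene, as the map of neighbouring genes shows.

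Wnt5a, Wnt7b and Wnt11 completed the picture of ligands with long peaks in every list. At Wnt5a, AEBP2 peaks measured 7892 bp and 9604 bp, the FS2-AEBP2 peak 9397 bp and the H3K27me3 peaks 23759 bp and 19366 bp. At Wnt7b the AEBP2 peaks measured 8327 bp and 7255 bp, the FS2-AEBP2 peak 6520 bp and the H3K27me3 peaks 10593 bp and 10732 bp, so that AEBP2 took up most of the marked stretch. At Wnt11 the AEBP2 peaks measured 2919 bp and 6319 bp, the FS2-AEBP2 peak 4342 bp and the H3K27me3 peaks 24551 bp and 12529 bp.

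Weak members of the ligand group differed mostly in AEBP2. Wnt9a and Wnt9b had AEBP2 in both replicates (2052 bp and 3382 bp at Wnt9a, 2661 bp and 3507 bp at Wnt9b), but their FS2-AEBP2 peaks were only 171 bp and 451 bp long. Wnt2 lacked a peak in AEBP2 replicate 1, and its peaks in AEBP2 replicate 2 and FS2-AEBP2 (2927 bp and 2437 bp) both had a score of 2. Wnt4 had AEBP2 in both replicates (1442 bp and 3082 bp) and no FS2-AEBP2 peak, the nearest lying 319999 bp away. Wnt16 had H3K27me3 (3749 bp and 6385 bp) and an FS2-AEBP2 peak of 461 bp, and no peak of endogenous AEBP2.

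Wnt8a and Wnt8b, ligands of the gastrulating embryo and the forebrain, had no AEBP2 at their promoters. H3K27me3 covered the whole of Wnt8a in both replicates, with peaks of 14504 bp and 14567 bp, although 65.1% and 57.9% of its promoter were covered. At Wnt8b, H3K27me3 lay over the start site in replicate 1 only (4780 bp, score 5). AEBP2 was nevertheless found inside Wnt8b, close to the end of the gene. Wnt8b occupies 44567962 to 44588763 of chromosome 19 (plus strand), and AEBP2 peaks lay from 44585003 to 44587702 (2700 bp) and from 44584160 to 44589054 (4895 bp), with FS2-AEBP2 from 44584479 to 44588677 (4199 bp). The 3 peaks began 17041 bp, 16198 bp and 16517 bp downstream of the start site, held exon sequence (1856 bp, 3017 bp and 2920 bp) and contained a CpG-island-like region of which 1230 bp lay in each peak. H3K27me3 covered the same place in both replicates (17049 bp and 10349 bp).

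At 6 of the 50 genes, all 3 AEBP2 lists had a further peak inside the gene, outside the promoter window, against 1.13% of all genes. These were Wnt3, Wnt6, Wnt8b, Wnt10b, Wnt11 and Rspo3, and 5 of them are ligands. In Wnt3 they measured 3304 bp and 5490 bp for AEBP2, began 35306 bp and 33771 bp downstream of the start site, and held 1874 bp and 2190 bp of CpG-island-like sequence. Wnt6 had AEBP2 peaks of 2487 bp and 4111 bp and an FS2-AEBP2 peak of 2665 bp in its last part, with 1331 bp, 1549 bp and 1444 bp of CpG-island-like sequence. In Wnt11 they measured 2986 bp, 3474 bp and 2936 bp and each held 1160 bp of such sequence. In Rspo3 none of the 3 peaks (728 bp, 1848 bp and 383 bp) held any, and that of replicate 2 began 1013 bp from the start site, just outside the promoter window. Further peaks were counted in each list by itself, and at Wnt10b those of the AEBP2 replicates did not overlap.

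**Figure D3:**
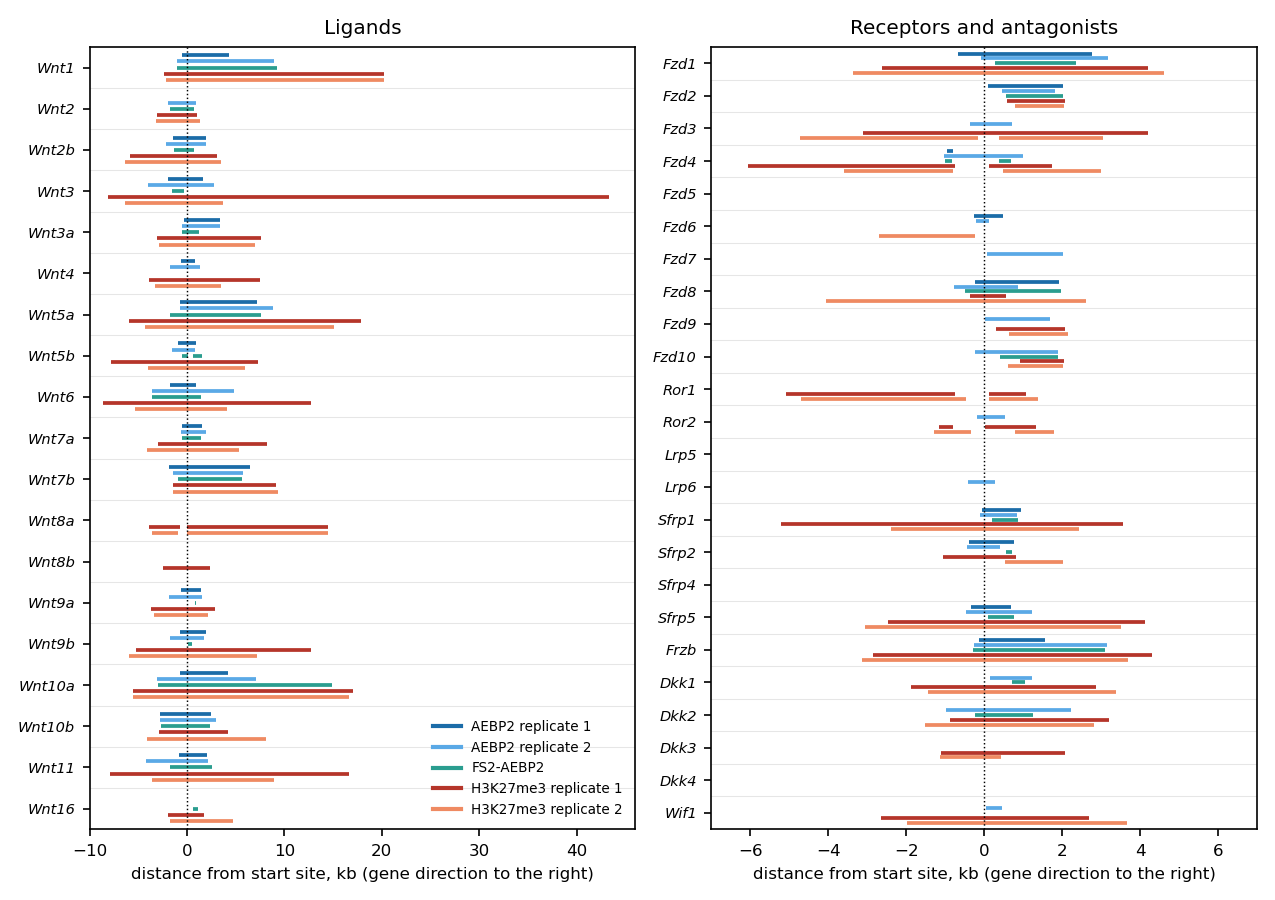
Peaks that touched the promoter, drawn as lines from their first to their last base relative to the start site (dotted line, distance in kb), for ligands on the left and for receptors and antagonists on the right, with a colour for each list. The axes differ in scale. H3K27me3 spans the start site at the ligands (at Wnt8b in replicate 1 only) and reaches further into the gene than upstream at most of them, whereas at Fzd4, Ror1 and Ror2 it stops on either side of the start site and at Fzd2, Fzd9 and Fzd10 it lies downstream.

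Fewer of the receptors were marked, and the mark was placed differently. Frizzled genes encode the membrane receptors that bind Wnt, Ror1 and Ror2 are receptor tyrosine kinases that bind Wnt5a, and Lrp5 and Lrp6 are the co-receptors of the β-catenin branch. H3K27me3 lay at 9 of the 14 promoters in replicate 1 and 10 in replicate 2, AEBP2 at 5 and 11, and FS2-AEBP2 at 5. Fzd1, Fzd2, Fzd4 and Fzd8 were in all 5 lists. The median H3K27me3 peak was 1754 bp in replicate 1 and 2633 bp in replicate 2, below the medians of 4864 bp and 3970.5 bp over all promoters with a peak. No receptor promoter was wholly covered by AEBP2 in either replicate, and the same held for the antagonists. Over all promoters with an AEBP2 peak, only 15.1% and 11.5% were wholly covered.

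The start site itself lay inside an H3K27me3 peak at only 3 of the 9 marked receptors in replicate 1 (Fzd1, Fzd3 and Fzd8) and at 2 of 10 in replicate 2 (Fzd1 and Fzd8). Over all promoters with a peak, it did so at 78.3% and 64.5%. At the ligands it did so at all 19 and all 18. At Ror1, H3K27me3 peaks ended 750 bp upstream and began again 123 bp downstream of the start site in replicate 1, and in replicate 2 the gap ran from 466 bp upstream to 133 bp downstream. The same arrangement was found in both replicates at Fzd4, with gaps from 741 bp and 805 bp upstream to 127 bp and 484 bp downstream, and at Ror2, with gaps from 804 bp and 329 bp upstream to 28 bp and 782 bp downstream. At Fzd2, Fzd9 and Fzd10, H3K27me3 was confined to a stretch inside the gene, starting 572 bp and 794 bp, 310 bp and 632 bp, and 914 bp and 601 bp from the start site. These stretches were 1145 to 1754 bp long, and ended within the gene.

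At Fzd4, Ror2 and Fzd3, an AEBP2 peak of replicate 2 lay over a start site that H3K27me3 of replicate 2 left free. At Fzd4 the AEBP2 peak of replicate 2 ran from 1023 bp upstream to 989 bp downstream, and 56.9% and 36.0% of it lay under H3K27me3 of replicates 1 and 2. At Ror2 the AEBP2 peak of replicate 2 was 723 bp long, contained the start site, and lay under H3K27me3 for 70.5% in replicate 1 and 0.0% in replicate 2. In Fzd3, 48.6% of the AEBP2 peak of replicate 2 (1078 bp) lay under H3K27me3 of replicate 2, where the mark flanked the start site. Ror2 and Fzd3 had no peak in AEBP2 replicate 1, and the Fzd4 peak of that replicate was 156 bp long, so these placements rest on a single replicate.

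Of the receptors, Fzd1 had the most promoter bases under AEBP2 in replicate 1 (1671 bp), whereas in replicate 2 (1091 bp) Fzd4, Fzd8 and Fzd10 had more. It is found on chromosome 5 (4753842 to 4758216, minus strand). AEBP2 peaks ran from 4755439 to 4758886 in replicate 1 (3448 bp, score 11) and from 4755029 to 4758306 in replicate 2 (3278 bp, score 16), and FS2-AEBP2 from 4755867 to 4757945 (2079 bp, score 16). H3K27me3 ran from 4754010 to 4760834 (6825 bp, score 13) and from 4753600 to 4761588 (7989 bp, score 14), and enclosed all 3. Of the gene, AEBP2 covered 63.5% and 72.9%, FS2-AEBP2 47.5% and H3K27me3 96.2% in replicate 1 and all of it in replicate 2.

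Fzd4, which takes part in retinal vessel growth, is found on chromosome 7 (96552876 to 96558620, plus strand). The AEBP2 peaks, from 96551920 to 96552075 (156 bp, score 4) and from 96551853 to 96553865 (2013 bp, score 12), differed widely in length. FS2-AEBP2 had 2 peaks, from 96551881 to 96552058 (178 bp, score 5) and from 96553246 to 96553561 (316 bp, score 7). The longer H3K27me3 peak ran from 96546803 to 96552135 (5333 bp, score 13) and from 96549282 to 96552071 (2790 bp, score 13), upstream of the start site. Fzd8 had AEBP2 peaks of 2150 bp (score 4) and 1630 bp (score 6) and an FS2-AEBP2 peak of 2462 bp (score 15), all over the start site, whereas its H3K27me3 peaks measured 922 bp (score 3) and 6670 bp (score 8). In replicate 1 a further H3K27me3 peak of 650 bp (score 7) began 1361 bp downstream of the start site of Fzd8, so that the mark was in pieces and 62.7% of the AEBP2 peak lay under them. In replicate 2 a single H3K27me3 peak enclosed the AEBP2 peak.

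Some receptors had AEBP2 and the mark apart. Fzd6 had AEBP2 peaks in both replicates (743 bp, score 1, and 325 bp, score 7), no H3K27me3 in replicate 1, and in replicate 2 a peak of score 2 that ended 234 bp before the start site. Fzd7, a Frizzled that is active in undifferentiated mESCs, and Lrp6 had a peak in AEBP2 replicate 2 only (1927 bp and 693 bp, both of score 6). The nearest H3K27me3 to the start site of Fzd7 was 23053 bp and 23738 bp away, and that of Lrp6 351314 bp and 64272 bp away. Together with Axin2 and Tcf7, 4 of the 50 genes had AEBP2 in replicate 2 and no H3K27me3 at the promoter in either replicate (8.0%). Over all promoters the share was 11.1%. At Axin2 and Tcf7, however, H3K27me3 lay outside the promoter window but within 2.5 kb, and at Axin2 it covered 56.1% and 46.6% of the AEBP2 peak. Ror1, Wnt8a and Dkk3 made up the reverse class, with H3K27me3 in both replicates and none of the 3 AEBP2 lists (6.0%, against 4.35% of all). Both classes were thus close to their share of all promoters. Fzd5 and Lrp5 had no peak within 1 kb in any list although both had a CpG-island-like promoter (2870 bp and 1430 bp), and the nearest H3K27me3 was 268441 bp and 311996 bp away for Fzd5 and 269513 bp and 270117 bp away for Lrp5.

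**Figure D4:**
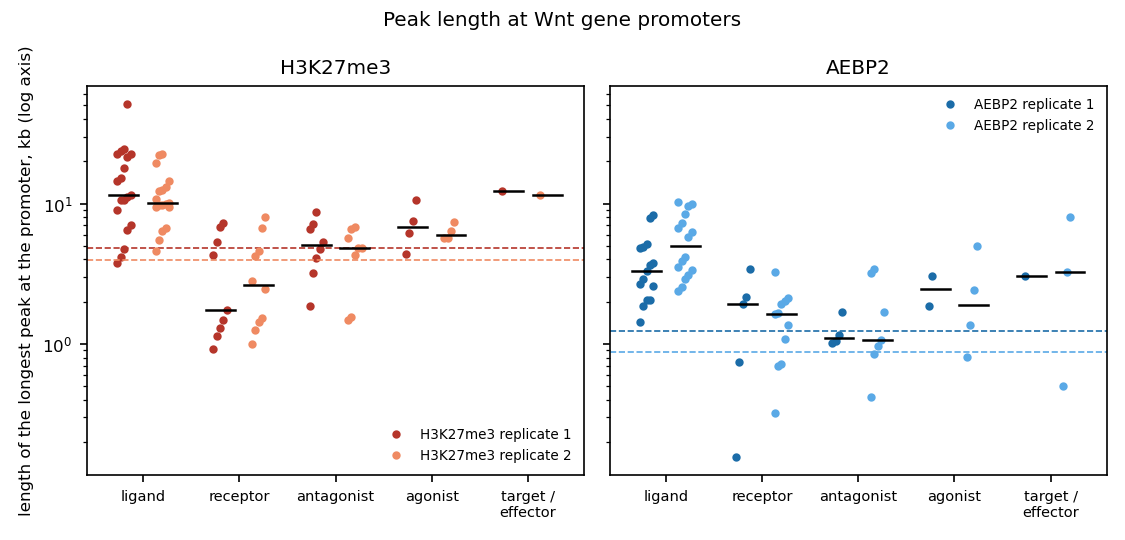
Length in kb, on a log axis, of the longest peak at each promoter by role, for H3K27me3 on the left and AEBP2 on the right, with a point per gene and a colour per replicate. Black bars are medians of the role and dashed lines are medians over all promoters with a peak. Ligands lie mostly above the dashed lines in both panels, and receptors mostly below them for H3K27me3 in replicate 1.

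The antagonists ranged from genes in every list to genes in none. Sfrp1, Sfrp2, Sfrp5 and Frzb encode secreted proteins with a Frizzled-like domain that bind Wnt, and all 4 were in every list. Of the Dkk genes, whose products bind the Lrp5 and Lrp6 co-receptors in the case of Dkk1, Dkk2 and Dkk4, none was in all lists. Dkk1 and Dkk2 had H3K27me3 in both replicates, AEBP2 in replicate 2 (1066 bp and 3207 bp) and FS2-AEBP2 (340 bp and 1505 bp). Dkk3 had H3K27me3 alone (3190 bp and 1557 bp), and Dkk4 had no peak. Wif1, a secreted Wnt-binding protein, had long H3K27me3 peaks (5344 bp and 5655 bp) and a short AEBP2 peak in replicate 2 (418 bp). Sfrp4 had no peak in any list, and the nearest H3K27me3 lay 1620849 bp and 465299 bp away. Of the 10, 8 had H3K27me3 in both replicates and 4 had AEBP2 in both.

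Sfrp1 occupies 24521974 to 24560104 of chromosome 8 (plus strand), with a CpG-island-like region of 1620 bp at its start site. AEBP2 peaks ran from 24521911 to 24522926 in replicate 1 (1016 bp, score 4) and from 24521859 to 24522827 in replicate 2 (969 bp, score 24), and nearly coincided. FS2-AEBP2 lay from 24522183 to 24522853 (671 bp, score 6), inside the peak of replicate 1, and inside that of replicate 2 but for its last bases. The H3K27me3 peaks, from 24516771 to 24525532 (8762 bp, score 4) and from 24519579 to 24524418 (4840 bp, score 9), extended well beyond AEBP2 on either side. AEBP2 thus covered 63 bp and 115 bp of the printed upstream sequence of Sfrp1, and otherwise lay downstream of the start site. The ranks of the scores differed between replicates, with 16.3% and 89.9% of the AEBP2 peaks of the list below it, and 23.0% and 59.8% for H3K27me3.

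Frzb and Sfrp5 had the other long H3K27me3 peaks among the antagonists present in all lists. Frzb occupies 80252127 to 80287782 of chromosome 2 (minus strand). Its AEBP2 peaks ran from 80286227 to 80287913 (1687 bp, score 10) and from 80284639 to 80288052 (3414 bp, score 28), FS2-AEBP2 from 80284695 to 80288082 (3388 bp, score 33), and H3K27me3 from 80283478 to 80290646 (7169 bp, score 33) and from 80284082 to 80290913 (6832 bp, score 18). Sfrp5 occupies 42272461 to 42276742 of chromosome 19 (minus strand). It had AEBP2 from 42276047 to 42277093 (1047 bp, score 1) and from 42275510 to 42277204 (1695 bp, score 13), FS2-AEBP2 from 42275968 to 42276641 (674 bp, score 13), and H3K27me3 from 42272619 to 42279216 (6598 bp, score 14) and from 42273221 to 42279807 (6587 bp, score 22). At both genes H3K27me3 enclosed every AEBP2 peak. Sfrp2 had H3K27me3 of 1862 bp over the start site in replicate 1 and of 1489 bp starting 533 bp downstream in replicate 2, so that its AEBP2 peak of replicate 2 (853 bp) lay wholly under the mark of replicate 1 and not under that of replicate 2.

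All 4 R-spondin genes, whose secreted products enhance Wnt signalling through Lgr receptors, had H3K27me3 over the start site in both replicates. The peaks measured 7469 bp and 7352 bp at Rspo1, 4385 bp and 6347 bp at Rspo2, 6214 bp and 5686 bp at Rspo3, and 10534 bp and 5650 bp at Rspo4. AEBP2 lay at Rspo1 (3047 bp and 5001 bp) and Rspo3 (1861 bp and 802 bp) in both replicates, and at Rspo2 (1359 bp) and Rspo4 (2415 bp) in replicate 2. FS2-AEBP2 lay at Rspo1 and Rspo2. The agonists were thus as often marked by H3K27me3 as the ligands, with AEBP2 less constant between replicates.

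The genes at the nuclear end of the pathway differed from each other. Lef1, a partner of β-catenin that rises on differentiation, was in all 5 lists, with AEBP2 peaks of 3041 bp and 8041 bp and H3K27me3 peaks of 12287 bp and 11450 bp. Tcf7 had a short AEBP2 peak in replicate 2 (504 bp, score 4) and H3K27me3 beginning 1154 bp and 1149 bp upstream of the start site, just outside the promoter window. Axin2, a direct target of β-catenin and a common readout of Wnt activity, had an AEBP2 peak in replicate 2 (3242 bp) with a score of 1, the lowest given in the list. H3K27me3 began 1356 bp and 1664 bp downstream of its start site, with peaks of 2513 bp and 2486 bp that held 1372 bp and 1064 bp of CpG-island-like sequence. Of the AEBP2 peak at Axin2, 56.1% and 46.6% lay under these.

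At most promoters of these genes with an AEBP2 peak, that peak lay inside the marked stretch. Of the longest AEBP2 peak at each promoter, 21 of 27 in replicate 1, 24 of 41 in replicate 2 and, for FS2-AEBP2, 26 of 30 lay wholly under H3K27me3 of both replicates. The exceptions were mainly receptors, as described above. The same count was not made over all promoters with an AEBP2 peak, so it is not shown to be particular to Wnt genes. A larger share of the AEBP2 peaks than of the H3K27me3 peaks was CpG-island-like sequence. The H3K27me3 peaks were also longer, with medians of 7009 bp and 6587 bp against 2592 bp and 2564 bp for AEBP2. Whether the shares differ at equal length was not tested. Of the bases under these peaks, 62.3% and 47.9% for AEBP2 and 46.6% for FS2-AEBP2 were in CpG-island-like regions, compared with 17.8% and 21.8% for H3K27me3.

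Genes in all 3 AEBP2 lists had the longest H3K27me3 peaks by their median. Among the 40 genes with H3K27me3 in both replicates, the mean length over replicates had a median of 9948 bp at the 24 genes in all 3 AEBP2 lists. It was 4779.5 bp at the 7 genes in 2 lists, 5283 bp at the 6 in 1 list and 4281.5 bp at the 3 in none, which overlap widely (1376.5 to 30749.5 bp for the first group and 2373.5 to 14535.5 bp for the last). Across the 50 genes, the covered bases of the promoter had a Spearman correlation of 0.73 between the AEBP2 replicates, 0.86 between the H3K27me3 replicates, 0.72 of FS2-AEBP2 with either AEBP2 replicate, and 0.55 to 0.69 between AEBP2 or FS2-AEBP2 and H3K27me3. The points share their promoters and base composition, and these values are descriptions across genes.

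The ligand genes include 4 pairs of close neighbours, and the members of each pair carried separate peaks. Wnt10b and Wnt1 point away from each other with start sites 11707 bp apart on chromosome 15. Wnt9b and Wnt3 (24329 bp apart) and Wnt3a and Wnt9a (16176 bp apart), both on chromosome 11, have the same divergent arrangement. Wnt6 and Wnt10a follow each other on chromosome 1, with start sites 19624 bp apart. No list had a single peak that contained both start sites of a pair. Of the bases between the start sites, H3K27me3 covered 44.4% and 54.0% for Wnt10b and Wnt1, 55.0% and 50.9% for Wnt9b and Wnt3, 50.2% and 45.7% for Wnt3a and Wnt9a, and 93.0% and 77.9% for Wnt6 and Wnt10a. AEBP2 covered 28.0% and 32.1%, 11.0% and 23.8%, 10.1% and 14.9%, and 26.2% and 61.3% in the same order.

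**Figure D5:**
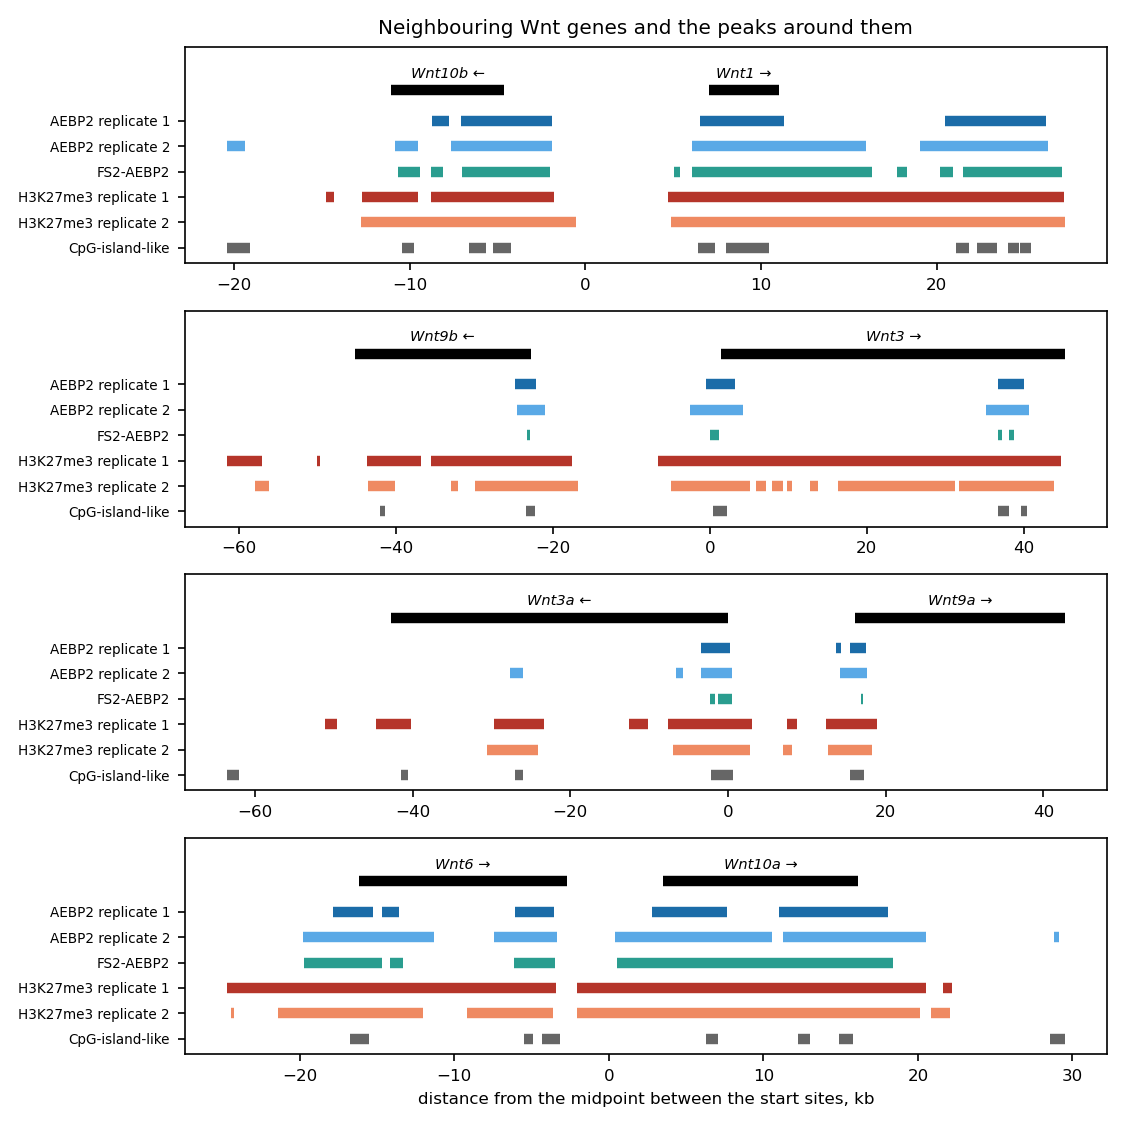
Maps of the 4 pairs of neighbouring Wnt genes, with the genes in black (arrows give the direction of transcription). Peaks of the 5 lists are in colour and CpG-island-like regions in grey. Distances in kb are from the middle of the stretch that runs from the first base of the left gene to the last base of the right gene. This is not the midpoint between the start sites that the axis label names. Each panel has its own scale. In the 3 divergent pairs unmarked stretches lie between the 2 genes in every list. Short separate peaks also lie between Wnt3a and Wnt9a (H3K27me3 in both replicates and AEBP2 in replicate 1) and between Wnt10b and Wnt1 (FS2-AEBP2). In Wnt6 and Wnt10a the H3K27me3 peaks of replicate 1 leave only a short gap.

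Calls at other genes of the pathway were counted in the same way. Of 53 further genes, 52 were matched to the annotation (Draxin was not). H3K27me3 lay at 16 in both replicates (30.8%, against 15.0% of all promoters), AEBP2 at 9 in both (17.3%, against 8.44%) and FS2-AEBP2 at 6 (11.5%, against 6.53%), and 24 had no peak in any list (46.2%, against 68.5%). The 13 cytoplasmic components included 2 with H3K27me3 in both replicates, Nkd1 and Nkd2, which are feedback inhibitors. The destruction complex genes Apc, Axin1 and Gsk3a and β-catenin itself (Ctnnb1) had no peak in any list, whereas Csnk1a1 had AEBP2 in both replicates without the mark, and Gsk3b had it in replicate 2 only (score 2). Of 10 further nuclear factors, Pygo1 alone had H3K27me3. Of 6 further targets, the mesoderm and posterior genes Sp5, T, Cdx1 and Cdx2 had H3K27me3 in both replicates and Ccnd1 and Myc had none. Among the planar polarity genes, Prickle1, Prickle2 and Celsr2 had it, and among the membrane regulators Lgr5, Lgr6 and Kremen2. The shares at the cytoplasmic components (15.4%) and at these nuclear factors (10.0%) were thus near that of all promoters, and that at the targets (66.7%) was above it. Most promoters of these 3 groups had a CpG-island-like region. Of all promoters with such a region, 23.4% had H3K27me3 in both replicates, which is above the first 2 shares.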

How the data were processed

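AEBP2 (2 replicates), H3K27me3 (2 replicates) and FS2-AEBP2 (1 sample) ChIP-seq peaks from wild-type mESCs were used. The submitters' processing notes name Bowtie, SAMtools, Picard and MACS2 2.0.10.2 and the mm9 build. Peaks were called per sample, and the authors deposited for each the start, the end and a whole-number score of unstated scale. Gapped blocks within a peak were not used. A deeper library gives more peaks, and thresholds and depth are not given in the sources used here, so numbers of peaks were not compared between lists.

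Of the deposited peaks on chromosomes 1 to 19, X and Y, 2877 and 6779 for AEBP2, 2884 for FS2-AEBP2 and 14112 and 9275 for H3K27me3 were used, and 2 of AEBP2 replicate 1 and 13 of H3K27me3 replicate 2 were left out. Start sites are the 5′ ends of GENCODE vM1 genes on mm9. Overlap code was tested on simulated peaks. Python 3.11.15, pandas 2.3.3 and numpy 2.4.6 were used.

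The 50 genes, their roles and the other lists were chosen with earlier results of these data known. Genes described in full were Sfrp1, the 3 of each main role with the longest mean H3K27me3 peak among those in all lists, genes with AEBP2 or H3K27me3 alone, and neighbouring Wnt genes within 100 kb. Other genes and the further peaks inside genes were chosen after their values were seen. Alternatives were other promoter sizes, a minimum of 500 bp covered, peaks at or above the median score, all transcript starts, and replicates alone or joined. The lists hold no values for regions without a peak, and no test was made. The upstream sequence of a ligand gene is not reported here.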

Additional observations from a re-analysis of the deposited data

How the results depend on the processing

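Of 92 recounts of the 13 counts of genes with a peak, 79 stayed within 1.5 times the reported count. With only peaks at or above the median score of their list, genes with AEBP2 in both replicates fell from 27 to 16 of 50 (4.73% of all promoters), receptors from 5 to 1, antagonists from 4 to 1, genes with H3K27me3 and AEBP2 in both from 26 to 16 (3.31% of all), and antagonists with FS2-AEBP2 from 6 to 3. With at least 500 bp of the promoter covered, receptors with AEBP2 in both replicates fell to 3, and those with FS2-AEBP2 to 3. With a peak in either AEBP2 replicate, the counts were 41 genes (22.9% of all promoters), 11 receptors and 7 antagonists. With 1 AEBP2 replicate left out, they ranged from 27 to 41 genes, from 5 to 11 receptors and from 4 to 7 antagonists. The higher ends are those of replicate 2 alone. For endogenous AEBP2, receptor and antagonist counts thus depend on the replicate and the score. Ligand counts stayed between 12 and 16 of 19 for endogenous AEBP2 and at 18 or 19 for H3K27me3. For FS2-AEBP2, ligands fell from 16 to 11 at the median score and to 13 with at least 500 bp covered. All genes with FS2-AEBP2 fell from 30 to 20 (3.94% of all promoters) and 23 (4.68% of all). A promoter of 2.5 kb added Axin2 and Tcf7 to the genes with H3K27me3 in both replicates, and 1 of 0.5 kb removed Fzd2, Fzd9, Fzd10 and Sfrp2. No paired analysis was possible because the counts come from no test. The unknown depth limits every absence of a peak, and 1 FS2-AEBP2 sample gives no replicate error.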

Other observations

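The upstream sequence of Dkk4, which had no peak in any list, was searched for the word CTTTGAT on both strands, a form of the sequence that TCF/LEF factors bind, after its letters had been seen. It holds the word 3 times in 300 bases, and 3 or more copies were found in 2 of the 22367 promoters (0.00894%), Dkk4 included. The word occurs at least once in 3.71% of all promoters and in 4 of the 50 Wnt genes (8.0%), Dkk4, Wnt8a, Wnt11 and Tcf7, with 1 copy in each of the other 3. A match is a description of the letters in this window and not a bound site.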
